A study of Sus scrofa with 44 samples.

Results

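The longissimus dorsi, the long back muscle, of the fetal pig (Sus scrofa) was compared between 95 and 70 days post coitus, called E95 and E70 here. The series profiled N6-methyladenosine (m6A), a methyl mark on adenosines of messenger RNA, over 6 stages of fetal muscle, and it has 44 samples in all. The comparison draws on 12 of them, which are 3 input libraries and 3 m6A immunoprecipitated libraries of each stage. All 12 were made from ribosomal RNA-depleted total RNA, and both stages carry the same tissue label, with no treatment or genotype named for either. The labels used here give no breed, sex or number of fetuses, and do not say whether replicates came from separate fetuses. P-values therefore measure the spread between these libraries, which may be in part technical. Expression was read from the 6 input libraries as TPM, a measure of transcript abundance that corrects for gene length and sums to 1000000 in every library. A gene entered the comparison when its mean TPM over both stages was at least 1, which held for 12512 of 22427 genes. Of the 12512, 10198 had a symbol. Methylation was read from 1 deposited peak list per stage, so peaks have no replicates.

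Late fetal muscle changes from a tissue that makes fibres to one that prepares to use them. Fibres replace embryonic and cardiac-type isoforms of the contractile proteins with fetal and adult ones, the calcium store and Z-discs mature, and mitochondria and glycogen stores grow before birth, when the muscle must work and produce heat. The m6A mark is placed by a nuclear complex built around METTL3 and METTL14 in a sequence context called DRACH, often near stop codons, and is read by proteins of the YTH and IGF2BP families that bear on the stability and translation of the marked RNA.

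Depth is unknown, since TPM keeps no read totals. The number of genes at 1 TPM or more ranged from 10876 to 12677 over the libraries. A single gene without a symbol, ENSSSCG00000032395, held 54.6 to 61.9% of all TPM at E70 and 60.5 to 66.9% at E95, so the TPM of every other gene depends on it. Libraries were therefore scaled by median ratio, with factors between 0.704 and 1.29, and all levels below are scaled TPM. Without that step the median gene was lower at E95 by a log2 difference of -0.42, and with TPM recomputed without the 2 most abundant genes by -0.25. Spearman correlations across genes were 0.926 to 0.935 within a stage and 0.914 to 0.923 between stages. The muscle markers were high in every library: ACTA1, skeletal alpha-actin, lay between 3306.5 and 7111.3, and CKM, muscle creatine kinase, between 577 and 1101.8. In bulk tissue, fewer cells of a type and less RNA per cell cannot be told apart.

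In the comparison of all genes, muscle at E95 had more RNA of the glucose transporter SLC2A4, the actin-capping protein TMOD4, the Z-disc protein TCAP and the calcium store protein CASQ1, and less of the cardiac-type isoforms MYL4 and TNNT2, the embryonic myosin MYH3 and the brain-type creatine kinase CKB. The MYL4 result was lost when any 1 of the E70 libraries was left out. Of the nuclear genes of oxidative phosphorylation 26 of 50 tested rose, and of those of fatty acid uptake and oxidation 16 of 34. These 2 counts drop to between 2 and 6 without an E70 library. At an adjusted p under 0.05 (limma with Benjamini-Hochberg adjustment over the 12512 genes), 1008 genes or 8.06% passed. Of these 525 were higher at E95 (4.2% of the genes tested) and 483 lower (3.86%). All counts over gene lists are to be read beside these 2 shares, and whether a list differs from them was not tested. At an unadjusted p under 0.05 in limma there were 3190 of the 12512 genes, both directions together. List counts at an unadjusted p are to be read beside that number. The median log2 difference of the genes that passed was 0.84 for those higher and -0.77 for those lower, against a median standard error of 0.15 over all genes. A log2 difference of at least 1 was seen in 190 of the genes higher and 149 of the genes lower. All log2 differences are of scaled TPM plus 1, which understates the change of genes at low levels. The balance of the calls depends on scaling: 7.6% of 1928 calls were higher at E95 with TPM as deposited, 24.9% of 897 without the 2 most abundant genes and 46.9% of 1096 after quantile normalization, against 52.1% here. Calls also changed when single libraries were left out. Such a fit has fewer libraries to estimate the spread from, so a lost call need not point to the library left out. Without E70 replicates 1, 2 and 3 in turn 391, 309 and 247 genes passed, and without E95 replicates 1, 2 and 3 475, 559 and 988. In all 6 of these fits 195 of the 1008 genes passed and 989 kept their direction. A gene is called stable below where it was among those that passed in all 6. For many other genes the libraries whose removal lost the call are given, and for some only the counts of their list.

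**Figure D1:**
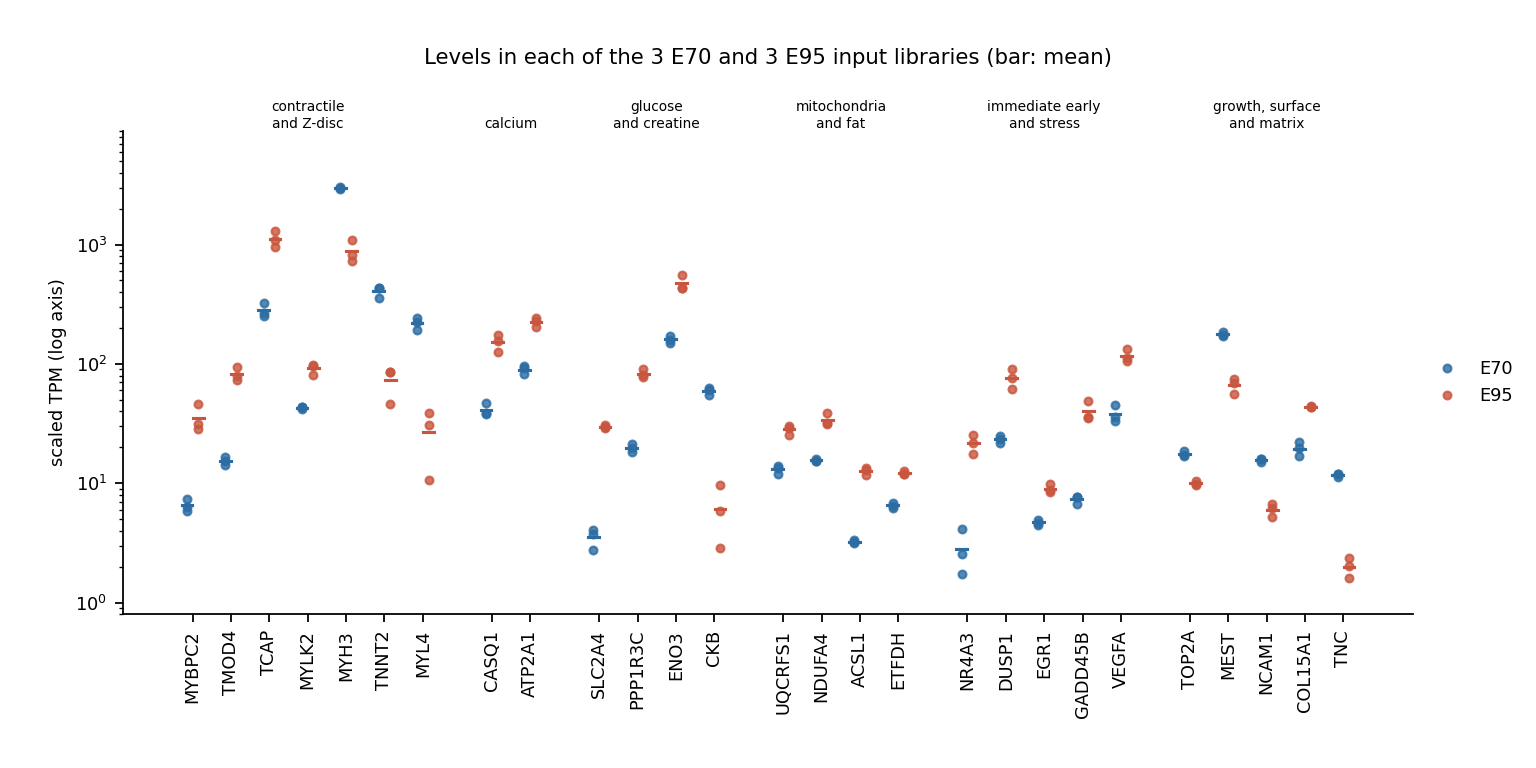
Scaled TPM (log axis) of named genes in each of the 3 E70 and 3 E95 input libraries, with dots for libraries and bars for means. The stages do not overlap for any gene drawn. The same holds for all 873 genes with a symbol that passed, so it adds nothing to the test. SLC2A4 lies between 2.78 and 4.06 at E70 and between 29.3 and 30.6 at E95.

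Several embryonic and cardiac-type contractile genes fell. MYH3, the embryonic myosin heavy chain, stood at 3060.4, 2917.4 and 2961.5 scaled TPM at E70 and at 733, 1088.6 and 813 at E95. Its highest E95 library is well below its lowest E70 library, and the fall of 1.78 on the log2 scale (SE 0.17, adjusted p = 0.00681) was stable. TNNT2, the cardiac troponin T that embryonic skeletal muscle also uses, fell from 430, 356 and 429 to 86.4, 85.6 and 46.4, a log2 difference of -2.51 (SE 0.27, adjusted p = 0.00773), also stable. MYL4, the embryonic and atrial essential light chain, had 242, 193 and 224 at E70 and 38.7, 30.9 and 10.6 at E95. Its log2 difference of -3.16 (SE 0.46, adjusted p = 0.0156) was among the largest falls of all genes. It did not pass when any 1 of the 3 E70 libraries was left out, with adjusted p of 0.057, 0.0573 and 0.0643 without replicates 1, 2 and 3. MYBPH, a myosin-binding protein, fell by 2.26 (SE 0.31, adjusted p = 0.0132; 0.0522, 0.0524 and 0.0594 without the same 3 libraries). Its gene model overlaps that of ADORA1, an adenosine receptor that also fell (log2 difference -0.92, adjusted p = 0.00958), and the labels do not say whether reads were counted by strand. The other members of this list that fell were ACTC1, cardiac alpha-actin, and the slow myosin MYH7B, with log2 differences of -0.76 and -0.72. ACTC1 was lost without any E70 library or without E95 replicate 1 or 3 (adjusted p 0.067 to 0.156), and MYH7B without any E70 library or without E95 replicate 1 (adjusted p 0.0731 to 0.109).

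In all, 6 of the 15 tested genes in the list of slow, embryonic and cardiac-type contractile genes fell and 0 rose, with a median log2 difference of -0.22 against 0 over all genes. Without E70 replicate 1, 2 or 3 only 2 fell, and 4 to 6 without an E95 library; with TPM as deposited 10 fell. The remaining 9 members did not pass. The slow troponins TNNI1, TNNT1 and TNNC1 had log2 differences of -0.09, 0.06 and -0.08 with adjusted p of 0.861, 0.919 and 0.887, and the slow light chains MYL2 and MYL3 had 0.21 and -0.09. TPM2, a tropomyosin, had the highest value of the list (0.46, adjusted p = 0.196). The E95 libraries of the slow troponins spread widely, TNNC1 with 521, 749 and 337, around the E70 values of 529, 504 and 584.

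Among the fast and adult isoforms, 2 of 11 tested rose, both stable, and 0 fell (median log2 difference 0.44). With TPM as deposited 1 rose and 1 fell, with a median of -0.09 where all genes lay at -0.42. The gene that fell there was ACTN3, the alpha-actinin of fast fibres, at 14.6, 9.36 and 15.9 scaled TPM at E70 and 6.36, 8.76 and 8.42 at E95 (log2 difference -0.67, adjusted p = 0.122; 0.0264 with TPM as deposited), the only member below 0 in the scaled values. MYBPC2, the fast myosin-binding protein C, was at 7.39, 5.84 and 6.37 at E70 and at 28.5, 31.4 and 46.1 at E95, a rise of 2.24 on the log2 scale (SE 0.2, adjusted p = 0.00544). MYLK2, the skeletal myosin light chain kinase, rose from 42.1, 43.3 and 43.9 to 80.5, 98.8 and 96.1, a log2 difference of 1.07 (SE 0.12, adjusted p = 0.00871; 0.0882 with TPM as deposited). The neonatal myosin MYH8 was already abundant, with means of 2834 ± 226 at E70 and 3158 ± 140 at E95 (SD, n = 3), a difference that did not pass (adjusted p = 0.468). The fast troponins TNNC2 and TNNI2 and the fast regulatory light chain MYL11 had log2 differences of 0.76, 0.6 and 0.72 with adjusted p of 0.0606, 0.129 and 0.0769. In each of these 3 genes every E95 library exceeded every E70 library, with E95 replicate 2 the highest. How often this holds among genes that did not pass was not counted. Myosins of adult fast fibres and MYH7 were not matched to a symbol and are not analysed here. Reads shared between myosin genes of the same cluster make single myosin values uncertain.

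Some Z-disc and thin filament genes rose. TCAP, the titin-capping protein telethonin, stood at 326, 250 and 268 at E70 and at 1092.7, 1287.4 and 952 at E95, a log2 difference of 1.98 (SE 0.17, adjusted p = 0.0054). TMOD4, the skeletal tropomodulin that caps thin filaments (ENSSSCG00000006631, chr4:98074380-98079346 in Sscrofa11.1), rose from 16.6, 14.3 and 15.4 to 73.6, 94.9 and 79.5, a log2 difference of 2.34 (SE 0.13, adjusted p = 0.00154). Both were stable, and their libraries of the stages lie far apart. MYOZ1 and MYOZ3, calcineurin-binding Z-disc proteins, LMOD2, which lengthens thin filaments, and the ubiquitin ligases TRIM63 and FBXO32, which tag sarcomere proteins for breakdown, rose by 1.18, 0.8, 0.9, 0.81 and 1.04. Each of these 5 was lost without any 1 of the E70 libraries, with adjusted p between 0.0532 and 0.129, and MYOZ1, MYOZ3 and LMOD2 also without some E95 libraries (0.056 to 0.123). Of 24 tested genes in the sarcomere list these 7 rose and 0 fell, 8 lay below 0 and the median was 0.28, and 2 rose without E70 replicate 1, 2 or 3, against 5 or 6 without an E95 library. With TPM as deposited 3 rose and 6 fell, around a list median of -0.22. Without the 2 most abundant genes 3 rose and 0 fell. DES, the intermediate filament desmin, did not pass (log2 difference 0.59, adjusted p = 0.145), and neither did MYOM2 of the M-band, with means of 97.3 and 97.5.

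In the calcium list 6 of 15 tested genes rose and 0 fell (median log2 difference 0.27). CASQ1, the calcium-binding protein of the sarcoplasmic reticulum, rose from 38.8, 38.3 and 47.4 to 126, 174 and 157, a log2 difference of 1.84 (SE 0.16, adjusted p = 0.00548). ATP2A1, the fast calcium pump SERCA1, rose from 92.2, 81.7 and 95.7 to 203, 241 and 227, a log2 difference of 1.31 (SE 0.13, adjusted p = 0.00674). Both were stable. The other 4 that rose were CACNA1S, the voltage sensor of the T-tubule, SLN, the pump inhibitor sarcolipin, and the junction proteins JSRP1 and HRC, with log2 differences of 0.59, 0.74, 0.82 and 0.7. All 4 were lost without any E70 library and without E95 replicate 2 (adjusted p 0.0611 to 0.149), and some without E95 replicates 1 and 3 (0.0572 to 0.114), so that 2 or 3 genes of the list rose without each library in turn. With TPM as deposited 2 rose and 2 fell, and after quantile normalization 3 rose and 1 fell. ATP2A2, the slow pump, had 0.22 (adjusted p = 0.293), and the embryonic release channel RYR3 had -0.29 (adjusted p = 0.27).

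SLC2A4, PPP1R3C and ENO3, genes of glucose uptake, glycogen and glycolysis, rose, and brain-type creatine kinase fell. SLC2A4, the insulin-responsive glucose transporter GLUT4 (ENSSSCG00000023915, chr12:52628746-52634965), had 3.78, 2.78 and 4.06 at E70 and 30.6, 29.7 and 29.3 at E95. The 3 E95 libraries are close to each other, and the log2 difference of 2.78 (SE 0.13, adjusted p = 0.00133) is a 6.85-fold rise on that scale. PPP1R3C, a subunit that targets a phosphatase to glycogen, rose from 19.6, 18.3 and 21.4 to 77.6, 91.1 and 80.6, a log2 difference of 2.02 (SE 0.11, adjusted p = 0.00154). ENO3, the muscle enolase, rose from 172, 151 and 159 to 432, 551 and 435 (log2 difference 1.54, SE 0.14, adjusted p = 0.00622). CKB, brain-type creatine kinase (ENSSSCG00000021220, on an unplaced scaffold), fell from 55.4, 60.9 and 62.6 to 9.73, 5.87 and 2.88. Its log2 difference of -3.2 (SE 0.36, adjusted p = 0.0088), a 9.19-fold fall on that scale, was the largest fall among genes with a symbol. These 4 genes were stable. CKM, the muscle form, had a log2 difference of 0.5 (adjusted p = 0.156).

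Of the 36 tested genes of glycolysis, glycogen and creatine 10 rose and 2 fell, with a median of 0.36. The other 7 that rose were ALDOA (aldolase), PFKM (muscle phosphofructokinase), PGK1 (phosphoglycerate kinase), PFKFB3 (which makes the activator of phosphofructokinase), PYGM (muscle glycogen phosphorylase), PPP1R3A (another glycogen-targeting subunit) and AMPD1 (AMP deaminase), by 1.72, 0.65, 0.51, 0.47, 0.73, 0.78 and 0.7. All 7 were lost without 1 or more E70 libraries, with adjusted p between 0.0502 and 0.154, and PYGM, PGK1, PFKFB3 and AMPD1 also without some E95 libraries (0.053 to 0.123). Without E70 replicates 1, 2 and 3 4, 3 and 4 genes rose, and 7 or 8 without an E95 library. With TPM as deposited 4 rose and 4 fell, and without the 2 most abundant genes 5 and 3. GAPDH, often used as a constant reference, had means of 768 ± 49.5 at E70 and 1428.1 ± 414 at E95 (SD, n = 3; adjusted p = 0.0678).

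Of 50 tested nuclear genes of oxidative phosphorylation 26 rose and 0 fell. All 50 had a log2 difference above 0 (0.34 to 1.9; 42 with TPM as deposited), and the median was 0.75. The genes that rose cover all 5 complexes and cytochrome c: 8 NADH dehydrogenase subunits (among them NDUFA5, NDUFA6, NDUFA8, NDUFB8, NDUFB9, NDUFS1 and NDUFV1), SDHA, SDHB and SDHC of complex II, UQCRFS1, UQCRC1, UQCRC2, UQCRQ and CYC1 of complex III, NDUFA4, COX4I1, COX5A, COX7A1, COX7B and COX7C of complex IV, ATP5F1C, ATP5MC1 and ATP5PF of the ATP synthase, and CYCS. UQCRFS1, the Rieske iron-sulphur protein, rose from 12.1, 13.4 and 14.1 to 29, 30.4 and 25.6 (log2 difference 1.05, SE 0.11, adjusted p = 0.00762). NDUFA4, a subunit of cytochrome oxidase, rose from 15.4, 15.9 and 15.4 to 31.2, 39.2 and 32.1 (log2 difference 1.08, SE 0.12, adjusted p = 0.00787). These 2 were stable, although with TPM as deposited they had adjusted p of 0.059 and 0.0572. COX7A1, the muscle and heart isoform of a cytochrome oxidase subunit, had the largest rise, from 13.1, 5.73 and 13.2 to 38.9, 48 and 34.9 (log2 difference 1.9, adjusted p = 0.0228), lost without E70 replicates 1 or 3 or E95 replicates 1 or 2 (0.0522 to 0.0741). The number that rose fell to 5, 4 and 2 without E70 replicates 1, 2 and 3 and to 7, 11 and 24 without E95 replicates 1, 2 and 3. Under every scaling tried, more of the list rose than fell: 10 and 0 with TPM as deposited, 17 and 0 without the 2 most abundant genes, and 30 and 0 after quantile normalization.

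Of the 13 protein genes of the mitochondrial genome 1 rose, and 9 were higher at an unadjusted p under 0.05. All 13 lay above 0, but 3 with TPM as deposited. The gene that passed was ATP8, a subunit of the ATP synthase, which went from 13307.6, 12690.8 and 11642.5 to 20888.5, 19201.7 and 19637.1 (log2 difference 0.67, adjusted p = 0.0256). It was lost without any E70 library or E95 replicate 1 (0.0713 to 0.129), overlaps ATP6 on the genome, and had the opposite sign, -0.18 (adjusted p = 0.498), after quantile normalization. ATP8 is among the 2 most abundant genes and so was not tested in the fit without them, where 0 of the remaining 12 rose. The list median was 0.4, but -0.13 with TPM as deposited and -0.06 after quantile normalization, so no direction is given for it. The difference between the nuclear and the mitochondrial list was not tested.

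Fatty acid uptake and oxidation genes rose too: 16 of 34 tested, with 0 lower, all 34 above 0 (0.14 to 1.69; 22 with TPM as deposited) and a median of 0.7. ACSL1, which activates long-chain fatty acids, stood at 3.34, 3.2 and 3.17 at E70 and at 13.5, 11.7 and 13 at E95 (log2 difference 1.69, SE 0.08, adjusted p = 0.00141). ETFDH, which passes electrons from acyl-CoA dehydrogenases to ubiquinone, rose from 6.9, 6.2 and 6.5 to 11.9, 12.7 and 12 (log2 difference 0.81, SE 0.08, adjusted p = 0.00702; 0.16 with TPM as deposited). Both were stable. PPARGC1A, the coactivator PGC-1 alpha that drives mitochondrial genes, rose from 1.93, 3.37 and 3.27 to 9.86, 9.17 and 15.2 (log2 difference 1.68, SE 0.24, adjusted p = 0.0144; 0.0546 without E70 replicate 3). PLIN5, the lipid droplet protein of oxidative tissue, rose by 1.53 (adjusted p = 0.0194; 0.0658, 0.0759 and 0.0709 without E70 replicates 1, 2 and 3). The other 12 were the dehydrogenases ACADL, ACADM and ACADVL, the trifunctional protein subunits HADHA and HADHB, ACAA2, ETFB, LPL, PDK2, PPARA, ANGPTL4 and MLYCD, with log2 differences of 0.54 to 1.17. Each of the 12 was lost without at least 1 library, and 5, 6 and 3 genes of the list rose without E70 replicates 1, 2 and 3, against 8, 12 and 13 without the E95 replicates. With TPM as deposited 5 rose and 0 fell, and without the 2 most abundant genes 7 and 0. The carnitine transferase CPT1B and the kinase PDK4 had 0.78 and 0.97 with adjusted p of 0.0739 and 0.0678.

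Adipocyte markers were highest in E95 replicate 1. ADIPOQ, the fat cell hormone adiponectin, was listed at 0, 0.831 and 0.0701 at E70 and at 25.4, 2.03 and 1.84 at E95, and PLIN1, the fat droplet protein of adipocytes, at 0.102, 0.507 and 0 and at 14.4, 2.19 and 1.03. Neither passed (adjusted p = 0.177 and 0.164), and of 6 tested adipocyte markers 0 rose (3 at an unadjusted p under 0.05), with a summed level of 34 to 45.5 at E70 and of 152, 65.1 and 54.4 at E95. FABP4, counted in both lists, had 14.9, 12.2 and 8.46 and then 36.6, 28.6 and 15.6. The part of fat cells in the other rises was not tested.

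**Figure D2:**
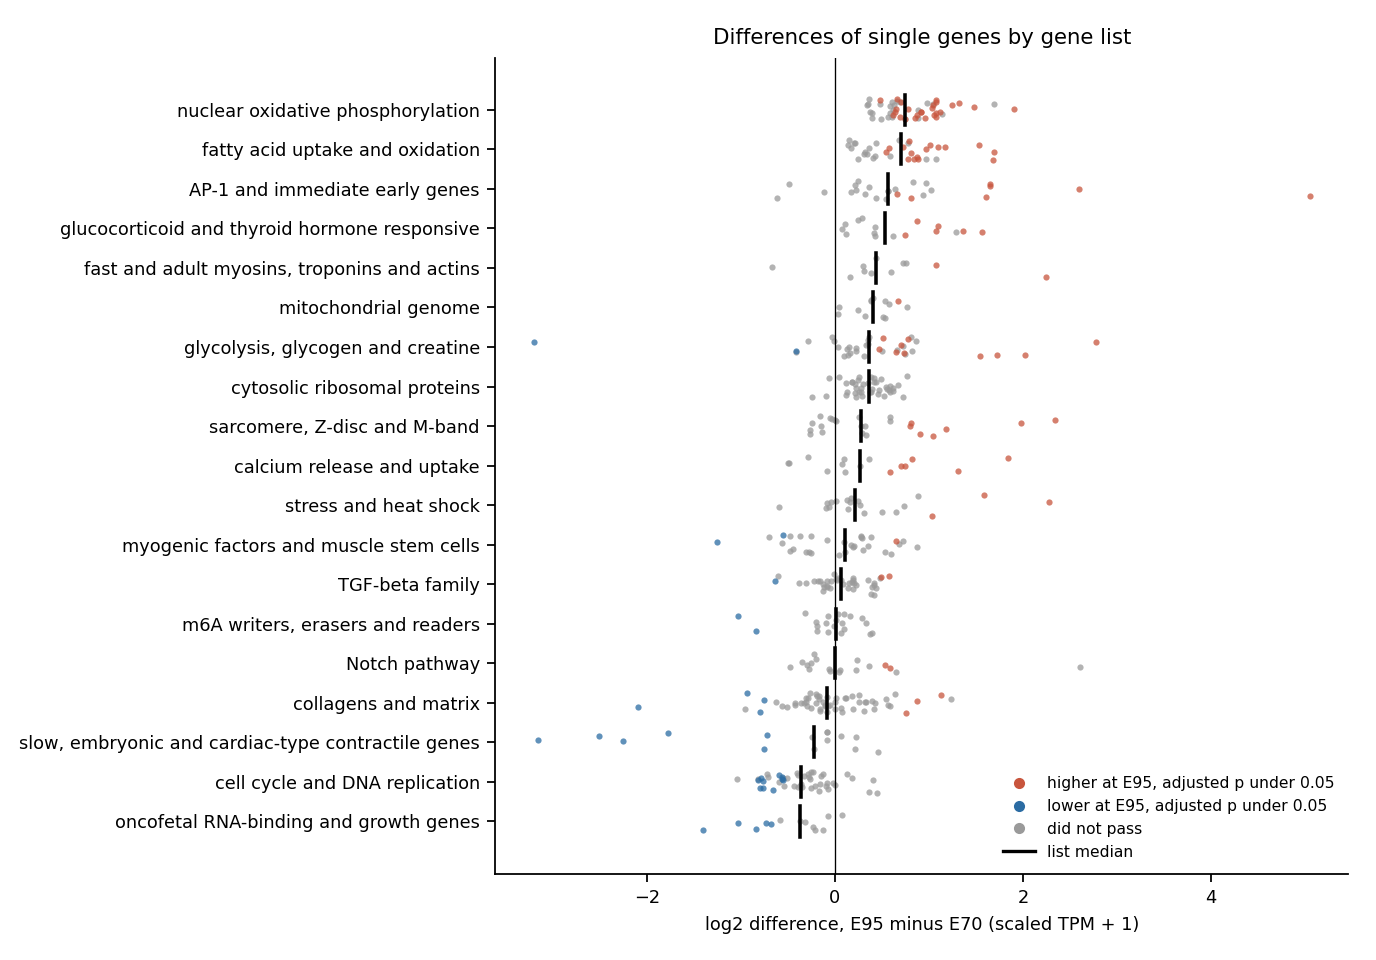
Log2 difference (E95 minus E70) of each tested gene of 19 gene lists, with red for genes that rose, blue for genes that fell, grey for genes that did not pass and a black bar for the list median. The nuclear oxidative phosphorylation list (median 0.75) lies wholly above 0 in the scaled values, and the cell cycle list (median -0.36) mostly below it.

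Immediate early genes, which cells switch on within minutes of a signal, included several of the largest rises. JUNB, a subunit of the AP-1 factor, was listed at 0 in all 3 E70 libraries and at 27.1, 47.5 and 25.9 at E95. All libraries of E33, E40 and E50 had it at 0 as well. NR4A3, an orphan nuclear receptor, rose from 1.76, 4.18 and 2.58 to 17.7, 21.9 and 25.5 (log2 difference 2.6, SE 0.25, adjusted p = 0.00674). DUSP1, a phosphatase that shuts off MAP kinases, rose from 21.8, 23.7 and 24.7 to 75.6, 91.5 and 61.5 (log2 difference 1.65, SE 0.16, adjusted p = 0.00702). EGR1, a zinc finger factor, rose from 4.96, 4.5 and 4.66 to 8.79, 9.81 and 8.53 (log2 difference 0.81, SE 0.09, adjusted p = 0.00773; 0.123 with TPM as deposited). These 4 were stable. FOS, the partner of JUN proteins, rose by 1.61 (adjusted p = 0.0164; 0.0688 without E70 replicate 3, 0.056 and 0.0538 without E95 replicates 1 and 2), NR4A1 by 1.65 (0.013; 0.0517 and 0.0605 without E70 replicates 1 and 3), and the small MAF protein MAFF by 0.66 (0.0435; 0.0735 to 0.115 without any 1 library). In all 7 of 25 tested genes rose and 0 fell, with a median of 0.56; with 1 library left out 4 to 7 rose, and with TPM as deposited 5 rose and 1 fell. MYC and EGR3 had -0.49 and -0.62 and did not pass.

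Genes known to respond to glucocorticoids or thyroid hormone, both of which climb before birth, rose in 6 of 16 cases with 0 lower and a median of 0.53. They were the zinc finger factors KLF9, KLF15 and ZBTB16, CEBPB, the mTOR inhibitor DDIT4 and FOXO1, with log2 differences of 1.56, 1.07, 1.1, 1.36, 0.87 and 0.75. None was stable: 1, 2 and 0 rose without E70 replicates 1, 2 and 3, and 0, 4 and 3 without E95 replicates 1, 2 and 3. In the deposited TPM 2 rose. KLF9 stood at 0.914, 0.506 and 1.46 at E70 and at 5.49, 3.08 and 5.8 at E95 (adjusted p = 0.0239; 0.0535 to 0.0808 without any E70 library or E95 replicate 1 or 3). FKBP5, a standard glucocorticoid target, was below the filter with 0.764, 0.902 and 1.02 at E70 and 0.353, 0.483 and 0.273 at E95, the opposite order. The receptors NR3C1 and THRA had 0.29 (adjusted p = 0.144) and 0.43, and did not pass. The THRA model overlaps that of NR1D1 (log2 difference 1.66, adjusted p = 0.142), and whether reads were counted by strand is not known.

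In the stress list 3 of 20 tested genes rose (15%, beside 4.2% of all genes) and 0 fell. The median was 0.21, and -0.28 with TPM as deposited, with 2 higher and 2 lower. GADD45B, a growth arrest protein, rose from 7.68, 7.74 and 6.78 to 48.8, 35.5 and 36 (log2 difference 2.28, SE 0.15, adjusted p = 0.00265). VEGFA, the growth factor of blood vessels, rose from 33.6, 36 and 45.5 to 105, 133 and 112 (log2 difference 1.59, SE 0.16, adjusted p = 0.00702). Both were stable. Without E95 replicate 3, 5 genes of the list rose, and 2 without any other library. The mitochondrial chaperonin HSPE1 (1.03, adjusted p = 0.0235), the remaining gene, was lost without any E70 library or E95 replicate 1 or 2 (0.0573 to 0.084). The heat shock genes HSPA8, HSPB1 and HSP90AA1 had 0.27, 0.14 and 0.16 and did not pass.

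Of 47 tested genes of cell division 10 fell and 0 rose, 42 lay below 0, and the median was -0.36. TOP2A, the topoisomerase of dividing cells, fell from 17.1, 18.7 and 17.4 to 9.62, 10.4 and 9.93 (log2 difference -0.77, SE 0.08, adjusted p = 0.00837) and was the only stable member. The others were the kinetochore and spindle genes CENPF, KIF11, KIF20A, KIF23, PRC1, ASPM and BUB1B, the factor MYBL2 and the thymidylate synthase TYMS, with log2 differences between -0.55 and -0.82. Without E70 replicates 1, 2 and 3 3, 2 and 1 members fell, and 5, 5 and 7 without E95 replicates 1, 2 and 3. With TPM as deposited 28 fell, and without the 2 most abundant genes 14. CCND1 and the inhibitor CDKN1C had 0.45 and 0.18 and did not pass.

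Of 13 tested genes of the fetal growth programme 5 fell and 0 rose, with a median of -0.37. MEST, an imprinted gene, fell from 174, 171 and 185 to 69.2, 56.1 and 75.3 (log2 difference -1.4, SE 0.14, adjusted p = 0.00702) and was stable. Its model overlaps that of COPG2, which fell too (log2 difference -0.71, adjusted p = 0.0169). PEG10 and PLAGL1, also imprinted, fell by 0.68 and 0.73 (adjusted p = 0.0226 and 0.0197), lost without any E70 library or E95 replicate 1 (0.0594 to 0.109), and PLAGL1 also without E95 replicate 2 (0.0512). IGF2BP1 and IGF2BP3, RNA-binding proteins of fetal tissue that read m6A, fell from 2.2, 1.95 and 1.91 to 0.251, 0.559 and 0.648 and from 7.15, 7.97 and 7.24 to 3.54, 3.23 and 4.42. Their log2 differences of -1.03 and -0.84 had adjusted p of 0.021 and 0.013, with 0.0832, 0.0863 and 0.0861 for IGF2BP1 without E70 replicates 1, 2 and 3 and 0.0575 and 0.0589 for IGF2BP3 without replicates 2 and 3. Without E70 replicates 1, 2 and 3 2, 1 and 1 of the list fell, and 3, 5 and 5 without E95 replicates 1, 2 and 3. Of the list 8 fell with TPM as deposited.

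These 2 readers were the only m6A regulators of 21 tested that passed, and the list median was 0.01. The writers METTL3 and METTL14 had means of 7.12 ± 0.474 and 4.66 ± 0.659 at E70 and of 7.46 ± 0.716 and 4.98 ± 0.827 at E95 (SD, n = 3), with adjusted p of 0.753 and 0.767. The erasers FTO and ALKBH5 had log2 differences of -0.19 and 0.33 (adjusted p = 0.296 and 0.269), the reader YTHDF2 -0.01 (0.976) and IGF2BP2 -0.32 (0.255). Without E70 replicates 2 or 3, 0 of the list passed. In the deposited TPM 4 fell and 0 rose.

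Of 31 tested myogenic factors and muscle stem cell genes 1 rose and 2 fell, 3.23% and 6.45% beside 4.2% and 3.86% of all genes, with a median of 0.11. At an unadjusted p under 0.05, 8 were higher and 6 lower, beside 3190 of all 12512 genes in either direction. NCAM1, the cell adhesion molecule of immature and uninnervated fibres, fell from 15.1, 16 and 15.9 to 6.69, 5.23 and 6.17 (log2 difference -1.25, SE 0.1, adjusted p = 0.00506) and was stable. CHRNA1, the acetylcholine receptor alpha subunit, fell by 0.55 (adjusted p = 0.017), lost without any E70 library or E95 replicate 1 (0.0552 to 0.0755). IGF1, the growth factor, rose by 0.65 (adjusted p = 0.0248), lost without the same 4 libraries (0.061 to 0.0936). PAX7, which marks muscle stem cells, had 17.4, 14.9 and 15.4 at E70 and 9.68, 10.6 and 13.2 at E95 (adjusted p = 0.0854), and MYOD1 120, 104 and 106 and then 197, 206 and 136 (adjusted p = 0.0819). The stages do not overlap for either gene, but the difference did not pass, and how common this is among such genes was not counted. MYOG, the fusion factor MYMK and the growth inhibitor MSTN had adjusted p of 0.266, 0.138 and 0.346. Of the list 10 fell and 0 rose with TPM as deposited.

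In the Notch pathway 2 of 18 tested genes rose, the ligand JAG1 (0.53, adjusted p = 0.032) and the endothelial receptor NOTCH4 (0.59, 0.0216), and 0 fell. At an unadjusted p under 0.05, 3 were higher and 4 lower. Neither JAG1 nor NOTCH4 was stable (0.0874 to 0.119 and 0.0768 to 0.0874 without an E70 library). JAG1 was also lost without E95 replicate 1 or 2 (0.0945 and 0.0844), and NOTCH4 without E95 replicate 2 (0.0649). The background is 4.2% of all genes, and with TPM as deposited 0 rose and 6 fell. The highest value of the list was that of NRARP, a Notch-regulated ankyrin repeat protein, listed at 0 in all 3 E70 libraries and at 20.8, 0 and 9.52 at E95, which did not pass (adjusted p = 0.202). Of 39 TGF-beta family genes TGFB1 and LTBP4 rose (0.49 and 0.57) and TGFB2 fell (-0.64, adjusted p = 0.0119; 0.0564 without E70 replicate 2), shares of 5.13% and 2.56%, near those of all genes. TGFB1 was lost without any 1 library (0.054 to 0.14) and LTBP4 without any E70 library or E95 replicate 1 or 2 (0.0894 to 0.154). Of 42 cytosolic ribosomal protein genes tested 0 passed in limma, 12 were higher at an unadjusted p under 0.05, and 39 lay above 0. Among all 12512 genes, 3190 had an unadjusted p under 0.05 in either direction. Without E95 replicate 3, 9 rose, and with TPM as deposited 3 fell.

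Of 57 tested matrix genes 3 rose and 4 fell, 5.26% and 7.02% beside 4.2% and 3.86% of all genes. TNC, tenascin C of developing tendon and connective tissue, fell from 12.1, 11.3 and 12 to 2.38, 2.05 and 1.61 (log2 difference -2.09, SE 0.11, adjusted p = 0.00154). COL15A1, a basement membrane collagen, rose from 22.1, 16.8 and 19.8 to 43.8, 43.5 and 44.1 (log2 difference 1.13, SE 0.12, adjusted p = 0.00811; 0.0602 with TPM as deposited). Both were stable. LAMB2, the laminin chain of mature basement membranes, and the protease inhibitor TIMP3 rose by 0.76 and 0.87, and the proteoglycan VCAN and the collagens COL5A3 and COL24A1 fell by 0.76, 0.8 and 0.94. Each of these 5 was lost without at least 2 of the E70 libraries, and LAMB2 and COL24A1 also without some E95 libraries (adjusted p 0.0516 to 0.105). COL1A1 and COL3A1, the main fibre collagens, had log2 differences of 0.43 and 0.12 (adjusted p = 0.369 and 0.768). Unscaled, as deposited, 0 rose and 17 fell.

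Markers of other cell types were followed in the same fit. Of 9 endothelial markers EMCN and PECAM1 rose (0.69 and 0.57, adjusted p = 0.0365 and 0.0401). The summed level of all 9 was 96.9 to 109 at E70 and 128 to 140 at E95. With TPM as deposited 0 passed and 2 lay above 0, with a median of -0.07 where all genes lay at -0.42. Without the 2 most abundant genes 0 passed as well. EMCN was lost without any E70 library or E95 replicate 2 (0.092 to 0.116) and PECAM1 without any of the 6 libraries (0.06 to 0.133). Of 8 smooth muscle and pericyte markers 1 rose and 2 fell, 5 lay above 0, and the median was 0.37. At an unadjusted p under 0.05, 4 of these 8 were higher and 2 lower. ACTA2 and CNN1, actin and calponin of smooth and of immature skeletal muscle, fell by 1.05 and 1.82. RGS5 of pericytes rose by 1.13 (adjusted p = 0.0053) and was stable. ACTA2 was lost without E70 replicate 2 or 3 (0.0518 and 0.0605), and CNN1 without any E70 library or E95 replicate 1 or 3 (0.0862 to 0.119). MYH11, which defines smooth muscle, was at 0.343 to 0.543 at E70 and at 0.91 to 2.86 at E95. Of 5 tested Schwann cell markers 1 rose and 1 fell, 4 lay above 0, and 3 were higher at an unadjusted p under 0.05. ERBB3, the neuregulin receptor, fell from 43.4, 41.7 and 38 to 9.59, 7.35 and 9.33 (log2 difference -2.11, SE 0.13, adjusted p = 0.00199), stable, while SOX10, which defines the glial lineage, had means of 4.9 and 5.32 (adjusted p = 0.654). PMP22, a protein of peripheral myelin, rose by 0.57 (adjusted p = 0.0403; lost without any of the 6 libraries, with 0.05 to 0.145), and PRX, periaxin of myelinating cells, had 0.62 (adjusted p = 0.109). Of 9 macrophage markers 0 passed in limma, 1 at an unadjusted p under 0.05 (summed level 76.9 to 84.4 and 68.2 to 110), and no lymphocyte marker reached the filter (summed level 1.37 to 2.53 in all). Of 9 fibroblast markers DPT fell (-1.26, adjusted p = 0.0362), lost without E70 replicate 2 or 3 or any E95 library (0.0628 to 0.12). Of 4 cartilage markers SOX9 fell (-0.59, adjusted p = 0.0467), lost without any E70 library or E95 replicate 2 or 3 (0.0881 to 0.137). The other 3, all collagens, lay above 0 and did not pass, COL11A2 with 0.779, 13 and 9.04 and then 25.7, 19.7 and 27.1 (log2 difference 1.99, adjusted p = 0.169). Of 6 tendon markers 0 passed, also at an unadjusted p under 0.05. Of 5 erythroid markers 0 passed, 1 at an unadjusted p under 0.05, with HBB, beta-globin, at 130, 305 and 253 and then 498, 671 and 367 (adjusted p = 0.113). The only neuron marker tested, NEFL, had 2.44 to 12.5 at E70 and 1.84 to 3.7 at E95 and did not pass. The cardiac list fell only through TNNT2, described above, and NPPA, TNNI3 and MYL7, which define heart muscle, were not matched to a symbol and are not analysed here. The part of other cell types in the gene changes was not tested.

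The largest rises outside the lists were led by CCL21, a chemokine of lymphatic vessels (ENSSSCG00000038162, chr10:32093783-32094482). It stood at 3.06, 4.07 and 1.86 at E70 and at 40.6, 44.9 and 27.3 at E95 (log2 difference 3.28, SE 0.27, adjusted p = 0.00506). KLHL33, a kelch protein (chr7:78470250-78479963), rose from 2.23, 0.463 and 2.54 to 19.1, 15.9 and 34.8 (log2 difference 3.17, SE 0.43, adjusted p = 0.0129). BHLHE41, a repressor of the circadian clock, rose from 1.45, 2.21 and 2.04 to 16.9, 15 and 18.5 (log2 difference 2.62, SE 0.14, adjusted p = 0.00145). SEC14L5, a lipid-binding family protein, rose from 0.156, 0.0516 and 0.134 to 3.78, 5.18 and 7.19 (2.48, adjusted p = 0.0053), and EEF1A2, the elongation factor that muscle and neurons use after birth, from 68.1, 71.2 and 81.9 to 239, 472 and 344 (2.19, 0.00952). These 5 were stable. SLC25A11, the mitochondrial oxoglutarate carrier, rose by 2.43 (adjusted p = 0.0162; 0.06 and 0.0567 without E70 replicates 1 and 3), and FAM167B by 2.27 (0.0202; 0.0708 and 0.0738 without the same libraries, 0.0688 and 0.0576 without E95 replicates 1 and 2).

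SLC15A2, a transporter of small peptides (ENSSSCG00000030305, chr13:138595942-138634473, overlapping the model of EAF2), fell from 8.02, 8.05 and 7.95 to 0.839, 0.716 and 0.88 (log2 difference -2.31, SE 0.08, adjusted p = 0.000548). DPYSL5, a collapsin response mediator of growing axons, fell from 6.79, 5.45 and 6.4 to 0.974, 0.734 and 0.894 (-1.95, adjusted p = 0.00154). Both were stable. GSTM3, a glutathione transferase with close paralogues, and JPT1 each fell most in E95 replicates 2 and 3. GSTM3 went from 11.7, 10.5 and 12.6 to 3.49, 0.52 and 0.802, and JPT1 from 12.4, 13.9 and 14.1 to 4.07, 1.13 and 0.761. Their log2 differences of -2.45 and -2.44 (adjusted p = 0.0216 and 0.0198) were lost without any E70 library (0.0708 to 0.0812 and 0.0631 to 0.0763) and without E95 replicate 2 (0.0573 and 0.0685), and that of GSTM3 also without replicate 3 (0.054). HOXD1 fell by 1.89 (adjusted p = 0.0304; 0.0827 to 0.103 without E70 replicate 1 or 3 and 0.0893 and 0.0705 without E95 replicate 2 or 3). RUSC1 was at 14.3, 4.27 and 2.27 at E70, a wide spread, and at 0.00135, 0.00141 and 0.00109 at E95, and was lost without E70 replicate 2 or any E95 library (0.0793 to 0.109).

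Of the genes that passed, 20 were listed at 0 TPM in every library of a stage, 7 of them with a symbol, and no fold is given for these. Listed at 0 at E70 were JUNB, above, PRR33, with 11, 13.9 and 14.5 at E95, and LRRC10, with 2.24, 4.7 and 1.8. Listed at 0 at E95 were GPR153, with 4.26, 7.88 and 3.91 at E70, LRRC18, with 4.3, 1.85 and 3.18, TSTD1, with 2.17, 2.75 and 5.5, and OR1K1, with 1.68, 1.44 and 3.71. A value of 0 can be a failed estimate in a file without counts, and between 329 and 436 of the tested genes were at 0 in each library. PRR33, JUNB and GPR153 were stable. LRRC10 was lost without any E70 library or E95 replicate 1 (0.0546 to 0.0693) and did not reach the filter without E95 replicate 2, LRRC18 without E70 replicate 3 (0.0605), TSTD1 without E70 replicate 2 (0.0543) and OR1K1 without E70 replicate 1 or 2 or any E95 library (0.054 to 0.0722). Without E70 replicate 3 OR1K1 did not reach the filter, so it passed in none of the 6 fits.

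**Figure D3:**
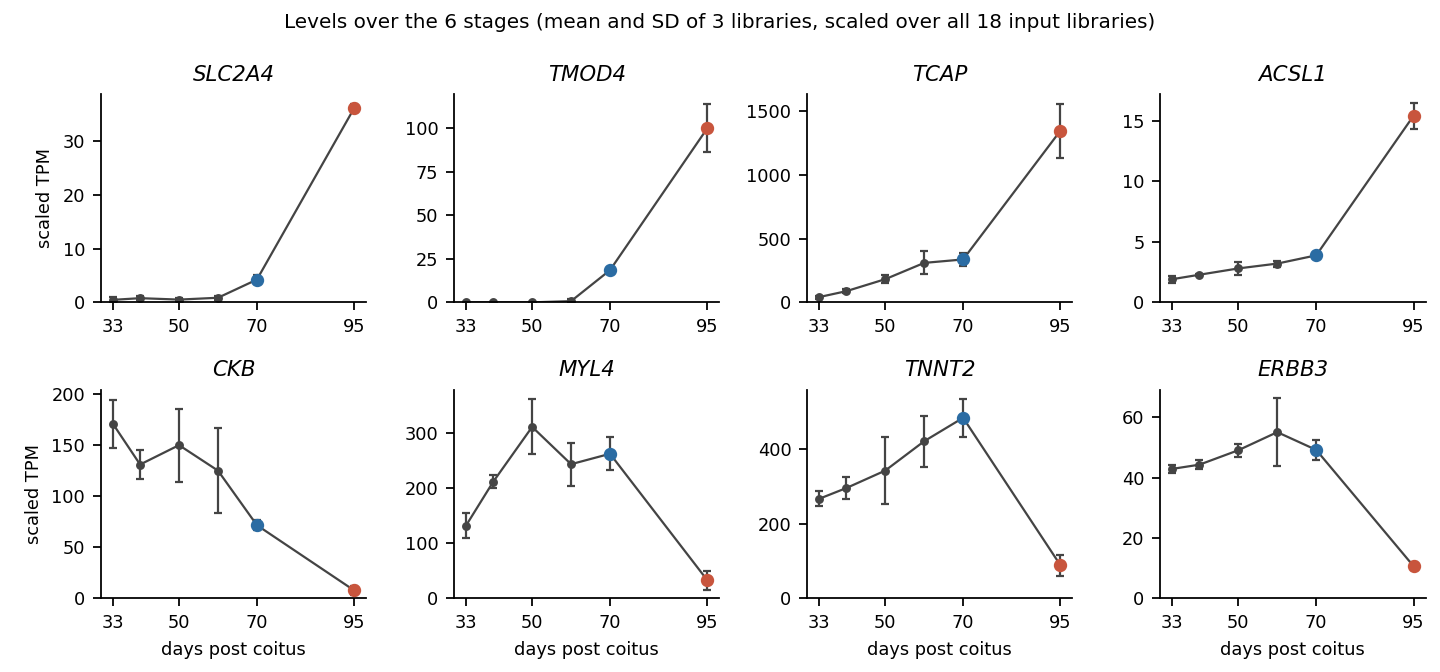
Levels (scaled TPM, scaled here over all 18 input libraries) of 8 genes against days post coitus, as mean and SD of 3 libraries per stage, with E70 in blue and E95 in red. SLC2A4, TMOD4, TCAP and ACSL1 are highest at E95, and MYL4, TNNT2 and ERBB3 stay high through E70 and are low at E95.

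Set beside the 4 earlier stages, E33, E40, E50 and E60 (scaled over all 18 input libraries), several of these genes lay at E95 outside the range of the 12 earlier libraries. SLC2A4 had been between 0 and 1.22 in the 12 earlier libraries, and had a mean of 4.24 ± 0.819 at E70 and 36.2 ± 0.744 at E95 (SD, n = 3). TMOD4 had been between 0 and 2.08, then at 18.5 ± 1.38 and 100 ± 13.9. ACSL1 had been between 1.67 and 3.48, then at 3.88 ± 0.11 and 15.4 ± 1.05. TCAP had climbed from 41.2 ± 12.3 at E33 to 337 ± 47.8 at E70 and reached 1348.8 ± 211 at E95. Among genes that fell, MYL4 had been between 105 and 353 in the earlier libraries and 263 ± 30.4 at E70, against 32.5 ± 17.6 at E95. ERBB3 had kept between 41.6 and 67.9, then 49.2 ± 3.23, and was 10.6 ± 1.44 at E95. TNNT2 had risen from 267 ± 20.6 at E33 to 485 ± 51.5 at E70 before its mean of 88.4 ± 27.8 at E95. CKB, by contrast, was already at 71.5 ± 4.62 at E70 against 171 ± 23.7 at E33. EEF1A2 began earlier, with a mean of 4.53 ± 0.461 at E50 and of 49.9 ± 15.1 at E60, before 88.4 ± 8.86 at the E70 stage and 427 ± 144 at E95.

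The peak lists held 8499 peaks in 4702 genes at E70 and 8109 peaks in 4598 genes at E95. A peak was present in 3909 genes at both stages, which is 83.1% of the E70 genes and 85% of the E95 genes, in 689 at E95 only and in 793 at E70 only. The median fold enrichment, as the authors' lists give it, was 4.22 at E70 and 4.42 at E95. By position, 6260 E70 peaks (73.7%) overlapped an E95 peak on the same strand by at least 1 base of exon, and 6410 E95 peaks (79%) overlapped an E70 peak. With at least 50% of both peaks shared, 5280 peaks matched, 62.1% and 65.1% of the lists. Peaks without a match were shorter, with a median of 121 and 120 bases of exon against 240 and 211 for those with one. Against RefSeq models of Sscrofa11.1, 58.8% of E70 and 59.7% of E95 peaks lay in coding sequence, 20.1% and 19.9% within 200 bases of a stop codon and 10.1% and 9.5% elsewhere in the 3′ UTR. Among unmatched peaks the 3′ UTR share was 14.6% at E70 and 11.9% at E95. Since each stage has 1 list, a gene present in only 1 list is a description of the lists and not a tested change of methylation.

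The sequences below are from peaks of genes whose expression and peak class both differed between the stages, and show the kind of site the lists hold. Each is 29 bases of the Sscrofa11.1 genome on the strand of the peak, 5′ to 3′, with a DRACH match in capitals. The first 5 genes rose at E95 and have a peak in the E95 list only, and the last 5 fell and have a peak in the E70 list only.
TMOD4 (coding, chr4:98075687-98075715, plus strand): gctagagcagctGGACTgcgagctacagg
NR4A3 (5′ UTR, chr1:241570307-241570335, plus strand): ccgggagccgctGGACTtgtacactgcag
BHLHE41 (coding, chr5:47690232-47690260, plus strand): cggtcatccagcGGACTcagcccagcgcc
KLHL33 (coding, chr7:78470842-78470870, plus strand): gagcctggccccAGACTtatggccccagg
CCL21 (beyond the RefSeq gene end, chr10:32094557-32094585, plus strand): aggagagagagaGGACTctgggccccagc
MYL4 (coding, chr12:16779277-16779305, minus strand): cgctgtttgaccGGACCccgaccggagag
SLC15A2 (near the stop codon, chr13:138597602-138597630, minus strand): taatgactgcatGGACTccgcccagactc
MYBPH (coding, chr9:113882498-113882526, minus strand): ctatatatgcctGGACCtaggtgtcccag
CNN1 (3′ UTR, chr2:70190532-70190560, plus strand): gggtccccccccGGACCagaagccccccc
COL23A1 (3′ UTR, chr2:80137134-80137162, plus strand): gaccccccacaaGGACTtgactttcccgg
These matches are not measured sites. Over all peaks of at least 101 exonic bases, the motif GGACT, read on the strand of the peak, was in the central 101 bases of 17.8% at E70 and 17.5% at E95, against 9.1% of 101-base exonic windows of genes with a peak. Its reverse complement AGTCC was in 9% and 8.4%, against 8.1%. Among unmatched peaks GGACT was in 19.3% at E70 (95% Wilson interval 17.3 to 21.5%) and in 16.2% at E95 (14 to 18.7%), intervals that overlap.

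Genes with a peak in the E95 list only were mostly not those with changed RNA, but among those that passed the test the directions differed by class. Of 640 such genes tested 72 rose and 3 fell, shares of 11.2% and 0.469%, beside 4.2% and 3.86% of all genes tested. Of 735 genes with a peak at E70 only 12 rose and 59 fell (1.63% and 8.03%), and of 3825 with a peak at both stages 173 rose and 181 fell. The median log2 differences were 0.11, -0.06 and -0.01. Classes were also drawn from only the peaks above the median fold of their list. A gene called E95-only there may have a weaker E70 peak, and the reverse. Over all genes, the E95-only class grew from 689 to 773 and the class at both stages shrank from 3909 to 2115. By these classes 42 of 731 tested E95-only genes rose and 22 fell. Of 796 tested E70-only genes 22 rose and 43 fell. The presence of a peak varied with the level: 22.7% of genes at 1 to 5 scaled TPM, 47.5% at 5 to 20, 61.6% at 20 to 100 and 51.7% at 100 or more had a peak at E70, and 23.2%, 46%, 58.9% and 51.7% at E95. The share was thus highest at 20 to 100 and lower again above. The part of the level in these counts was not tested.

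**Figure D4:**
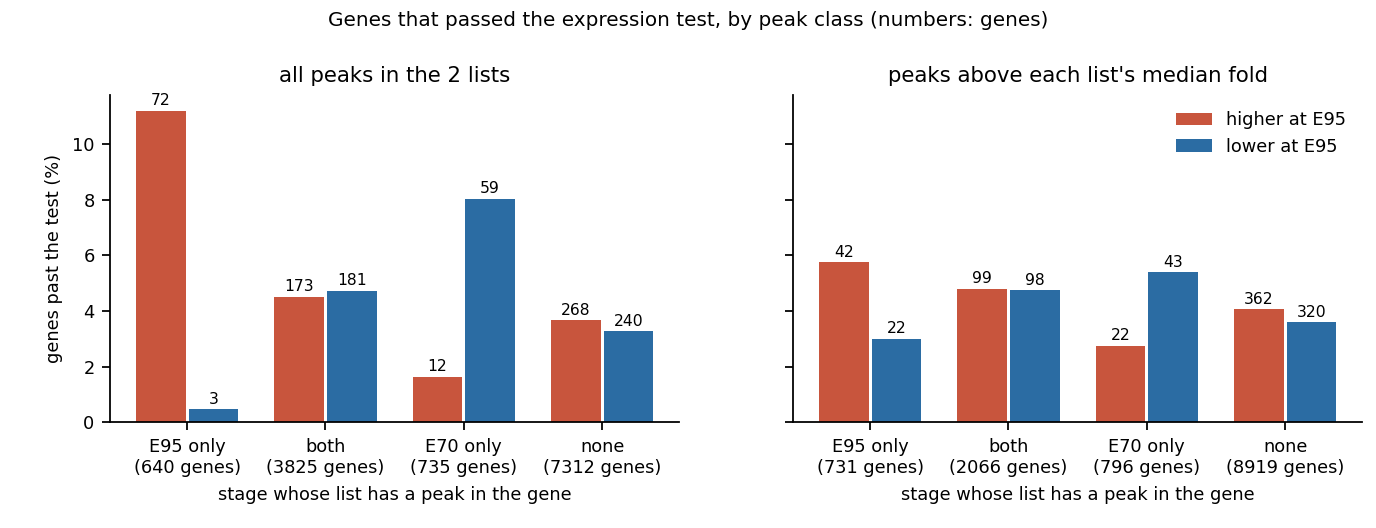
Share of tested genes that rose (red) or fell (blue) at E95, by whether the gene has a peak in the E95 list only, both, the E70 list only or none, for all peaks (left) and for peaks above the median fold of their list (right). With all peaks 72 of 640 E95-only genes rose and 59 of 735 E70-only genes fell. With stronger peaks these were 42 of 731 and 43 of 796, and such genes may have a weaker peak at the other stage.

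Among genes that rose with a peak at E95 only were CCL21, KLHL33, BHLHE41, NR4A3 and TMOD4, with peak folds of 4.1 (CCL21), 7.51 (BHLHE41) and 2.19 (TMOD4). NR4A3 had 3 E95 peaks, with folds of 5.88, 5.31 and 3.55, and KLHL33 had 3, with 5.15, 5.16 and 6.81. CASQ1 (fold 2.48, 3′ UTR), PPARGC1A (5.13 and 2.18, coding), ACSL1 (3.78 in the 3′ UTR and 1.95 near the stop codon), FOS (4.16 and 1.88) and GADD45B (3.63, 3′ UTR) were in the same class. Over the 6 lists, TMOD4, CASQ1, NR4A3, KLHL33, CCL21 and GADD45B had a peak in the E95 list alone, while BHLHE41 also had one at E33 and ACSL1 at E50 and E60. Among genes that fell with a peak at E70 only, MYL4 had a fold of 2.99, SLC15A2 4.03, CNN1 4 and COL23A1 6.54, and MYBPH had 3 peaks with folds of 4.02, 1.57 and 1.41. CNN1 was lost without any E70 library or E95 replicate 1 or 3 (adjusted p 0.0862 to 0.119), and COL23A1, a membrane collagen, was stable (-1.78, adjusted p = 0.00442). Peaks had been present in MYL4 at every earlier stage and in COL23A1 likewise.

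Some genes went the other way. MYBPC2 rose and had a coding peak of fold 4.14 at E70 only, and ACOT11, PLEKHF1, CCDC85B and SLC25A34 rose by 1.17, 1.1, 1.03 and 0.96 with a peak at E70 only. SLC25A34 was lost without E70 replicate 3 (0.0548), and the other 3 of these without at least 5 libraries (up to 0.124, 0.125 and 0.153). The only 3 genes that fell with a peak at E95 only were PRDM8, PIP4K2A and RARB, with log2 differences of -1.12, -0.6 and -0.52. PRDM8 was stable, PIP4K2A was lost without any E70 library or E95 replicate 1 (0.051 to 0.0745), and RARB without any E70 library or E95 replicate 1 or 2 (0.0939 to 0.146). TCAP, MYH3 and TNNT2 changed with a peak at both stages: the main peak of TCAP had a fold of 4.54 at E70 and 3.57 at E95, and TNNT2 had 1.95 and 2.15 in 2 pieces at E70 and 3.14 in a single longer peak at E95. TNC, which fell, had peaks at both stages, the strongest with a fold of 10.2 at E70 and 21.4 at E95.

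The highest folds in genes with a peak in a single list of the 2 belonged mostly to genes whose level did not pass. At E95 only these were ITPR2 (25.9, a calcium release channel, near the stop codon), TRAF3 (23.8), ATG2A (23.5), PICK1 (22.9) and SOCS3 (21.7, 3′ UTR). The PICK1 peak lies outside RefSeq coding genes on its strand, and 4.61% of E70 and 4.91% of E95 peaks overlap a peak on the other strand. At E70 only they were NCKAP5 (43.8, coding), PAK3 (35.9, 3′ UTR), FBXO5 (29.2, coding), KHDC4 (25.3) and TM2D2 (24). NCKAP5 fell by 1.11 (adjusted p = 0.00959; 0.0511 and 0.056 without E70 replicates 2 and 3) and PAK3, a kinase of the cytoskeleton, by 0.67 (0.0232; lost without any E70 library or E95 replicate 2, 0.061 to 0.0986).

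For peaks that matched 1 to 1 between the lists, the fold could be set side by side in 4991 pairs from 3257 genes. The median log2 ratio of fold at E95 over E70 was 0.11 (quartiles -0.17 and 0.37), with 216 pairs at least 2-fold higher and 96 at least 2-fold lower. The lists were called separately, so a shift of all ratios has no reading for single genes. The largest ratios upward were in TRAF6, a ubiquitin ligase of immune signalling (fold 5.96 at E70 and 57.9 at E95, near the stop codon), ADGRG1, an adhesion receptor with a part in muscle growth (5.23 and 50.8), and SLC8A1, the sodium-calcium exchanger (2.98 and 22.9). The largest downward were in RBM3, a cold-inducible RNA-binding protein (20.1 and 2.8), NRBF2 (28.3 and 4.16) and ELAC1 (25.6 and 5.22). The RNA of the 5 of these genes that were tested differed by -0.22 to 0.36 on the log2 scale and did not pass. Over 2151 tested genes with a single such pair the ratio and the log2 difference of RNA had a Spearman correlation of -0.14 and a Pearson correlation of -0.13. That is a description across genes, which are not independent and share the same lists and libraries.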

How the data were processed

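RNA levels were TPM values, 1 deposited file per input library, which the authors computed per gene. Peaks were 1 deposited list per stage with the authors' fold enrichment of immunoprecipitate over input for each peak, and whether replicates were pooled, the peak caller and the strand setting of the counting are not given in the sources used here. Trimmomatic, HISAT2 and Sscrofa11.1 are named in the submitters' processing notes, without versions. The 6 input libraries were scaled by median ratio, genes with a mean TPM of at least 1 were kept, and log2(scaled TPM + 1) was tested with limma 3.58.1 in R 4.3.3 (lmFit, eBayes with trend), with Benjamini-Hochberg adjustment over all tested genes at 0.05. Only the 6 libraries of the compared stages entered the fit. An exact permutation test of 3 against 3 cannot go below 0.1 and was not used. On simulated data of 11887 genes with 200 changed, the fit recovered 62% of genes changed by 1 log2 unit and 89% of those changed by 2, with 5.6% of calls false. Whether these shares hold for the 6 input libraries, or for genes at low levels, was not tested. Peaks were placed on RefSeq models of Sscrofa11.1, and intervals are 95% Wilson intervals that cover counting error only.

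The members and gene lists were chosen with earlier results of these data known. Genes named outside the lists were the 12 largest rises and 12 largest falls with a symbol, TPM above 0 in every library and no overlap between stages, up to 5 genes listed at 0 per direction, and the leading genes of each peak class. Alternatives were other scalings, pseudocounts of 0.1 and 5, other filters, all 18 input libraries, robust eBayes, a replicate block and each library left out. The immunoprecipitated libraries were used through the peak lists, and samples of other cells are not analysed here. The counts over gene lists include some genes that are not reported here by name. Python 3.11.15 with pandas 2.3.3, numpy 2.4.6, scipy 1.17.1 and matplotlib 3.10.9 was used for the rest.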

Additional observations from a re-analysis of the deposited data

How the results depend on the processing

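Against 1008 genes that passed (525 higher and 483 lower at E95), TPM as deposited gave 1928 (147 and 1781), all 18 input libraries in the fit 1800 (928 and 872), TPM without the 2 most abundant genes 897 (223 and 674) and a mean TPM of at least 5 778 of 6483 (482 and 296). Leaving out each library in turn gave 247 to 988 genes, 130 to 540 higher and 117 to 448 lower. The replicate block gave 39 (24 and 15), and with it 0 of 50 nuclear oxidative phosphorylation genes rose. Deviations of libraries with the same number had correlations of -0.038, 0.053 and 0.007, within the -0.07 to 0.06 of libraries with different numbers. The labels state no pairing, and whether libraries with the same number share a batch was not tested. With a mean TPM of at least 5, 345 genes had a peak at E95 only and 368 at E70 only, and with peaks above the median fold 2115 had one at both stages. ATP8 had -0.18 after quantile normalization, the only reversal among 175 single genes; 110 of them kept their call with TPM as deposited, 157 after quantile normalization and 53 without E70 replicate 3. The cause of these differences was not tested. TPM keeps no depth, so no counting limit can be set for low genes.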

Other observations

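Most tested genes of sterol synthesis and uptake fell at E95. The list was written after LSS, SQLE and FADS1 had been seen among the genes that fell, so its count is a description. Of 19 tested 13 fell and 0 rose, beside 3.86% of all genes lower, with a median log2 difference of -0.9. LSS, lanosterol synthase, fell from 13.7, 10.5 and 14.2 scaled TPM at E70 to 3.18, 3.02 and 3.3 at E95 (log2 difference -1.72, SE 0.12, adjusted p = 0.0037). SQLE, squalene epoxidase, SC5D, a late enzyme of the pathway, and SREBF2, the factor that controls these genes, fell by 1.58, 1.23 and 1.23, and these 4 genes passed without each library in turn. Without E70 replicates 1, 2 and 3 5, 5 and 6 genes of the list fell, and 9 without any E95 library. Under the other scalings 15 (TPM as deposited), 13 (without the 2 most abundant genes) and 12 (quantile) fell.

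Of 10 tested genes of fatty acid desaturation and synthesis, chosen in the same way, FADS1, SCD and ELOVL5 fell. FADS1, a desaturase of polyunsaturated fatty acids, went from 20.1, 16.1 and 21.1 to 5.84, 5.39 and 4.34 (log2 difference -1.7, adjusted p = 0.0053) and passed without each library in turn. SCD and ELOVL5 (-0.81 and -0.51) were lost without any E70 library and without some E95 libraries (0.0716 to 0.123). Of the sterol genes that fell, SQLE, INSIG1 and HMGCS1 were among those with peaks at E70 and not at E95, and the highest fold of these 3 was 15.8, in the 5′ UTR of SQLE. FDFT1 and EBP, which also fell, had peaks near the stop codon at both stages, with folds of 11 and 5.95 in FDFT1 and of 4.86 and 9.5 in EBP at E70 and E95.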
